A study of Mus musculus with 4 samples.

Results

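Genes of mitochondrial and peroxisomal fatty acid oxidation were compared between soleus muscle, a slow calf muscle, of wildtype mice and of HSL-null mice, which lack hormone-sensitive lipase. Membership was fixed by a list of 38 gene symbols. No measured value entered the rule, but the list was chosen with earlier results of these data known. Of these genes, 33 had a probe set with a single gene symbol in the platform annotation used here, out of 8252 genes named in that way, and 31 lay above the filter on dim probe sets, out of 4851. Cpt1b, Hadha, Acot2, Bdh1 and Acat1 had no such probe set and were not analysed here. Each genotype was a pool of soleus muscle from 5 females aged 6 months, hybridised as 2 technical duplicate arrays named array 1 and array 2. The labels do not say how the null allele was made, and they name no strain or treatment.

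Fatty acids are burned mainly in mitochondria. Long-chain acyl groups enter on carnitine, an acyl-CoA dehydrogenase opens each turn of the spiral, and a hydratase, a second dehydrogenase and a thiolase complete it, while electrons from the acyl-CoA dehydrogenases leave through the electron transfer flavoprotein. Peroxisomes shorten very long and branched chains with a parallel set of enzymes and rely on catalase to remove the peroxide they make. Slow oxidative muscle such as soleus is rich in this machinery. Hormone-sensitive lipase acts upstream, releasing fatty acids from stored lipid.

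Values are array intensities, with the SD over 2 arrays. Differences are log2 HSL-null minus wildtype, the mean over the 4 pairs of an HSL-null and a wildtype array, and their errors are standard errors (SE) from the duplicates. With 1 pool per genotype there is no replicate check across animals, no p-value was computed, and the errors describe the arrays only. A gene was called separated when all 4 pairs differed in the same direction, each by at least 1.5-fold. A gene was called non-overlapping when all 4 pairs differed in the same direction, whatever the size. Because muscle was measured as a whole, fewer cells of a type and less RNA per cell cannot be told apart.

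The arrays were checked first. Lipe, the gene for hormone-sensitive lipase, read 71.4 and 70.2 in wildtype against 16.2 and 19.4 in HSL-null. Over the 4851 named genes, which are not independent replicates, duplicates correlated at r = 0.988 for both genotypes, and the 4 pairings across genotypes at 0.983 to 0.986. The 3′ to 5′ signal ratio of the beta-actin control, a measure of RNA quality, was 0.697 ± 0.0126 for wildtype (SD, n = 2) and 0.819 ± 0.00532 for HSL-null. For Gapdh it was 0.941 ± 0.0203 and 0.917 ± 0.00716. Slow fibre markers gave 9 genes above the filter among 9 with a probe set. All 8 liver and kidney markers with a probe set lay below the filter.

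No oxidation gene was separated between the pools, but more of them lay slightly higher than lower in HSL-null. The count was 0 separated of 31, against 0.454% of all named genes, and it was 0 as well at the smaller fold tried as an alternative. Of the 31, 11 were higher on all 4 array pairs (35.5%), against a background of 19.7% of all named genes, and 2 were lower (6.45%), against 21.5%. The remaining 18 overlapped between genotypes. The 11 higher genes differed by 0.10 to 0.40, and all but Acot1 by under 0.30. Of the 11, 6 were among the 9 members with a mean intensity of at least 1000. In that range 30.2% of named genes were higher on all pairs. The other higher genes, Slc25a20, Decr1, Acot1, Pex11a and Scp2, were dimmer. With each array centred on its median, 7 members were higher and 4 lower on all pairs, and the background moved to 13.7% and 27.7%. The 7 were Crat, Acadm, Hadhb, Decr1, Acaa2, Acot1 and Scp2, and these were non-overlapping under each of the 4 other scalings tried.

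**Figure D1:**
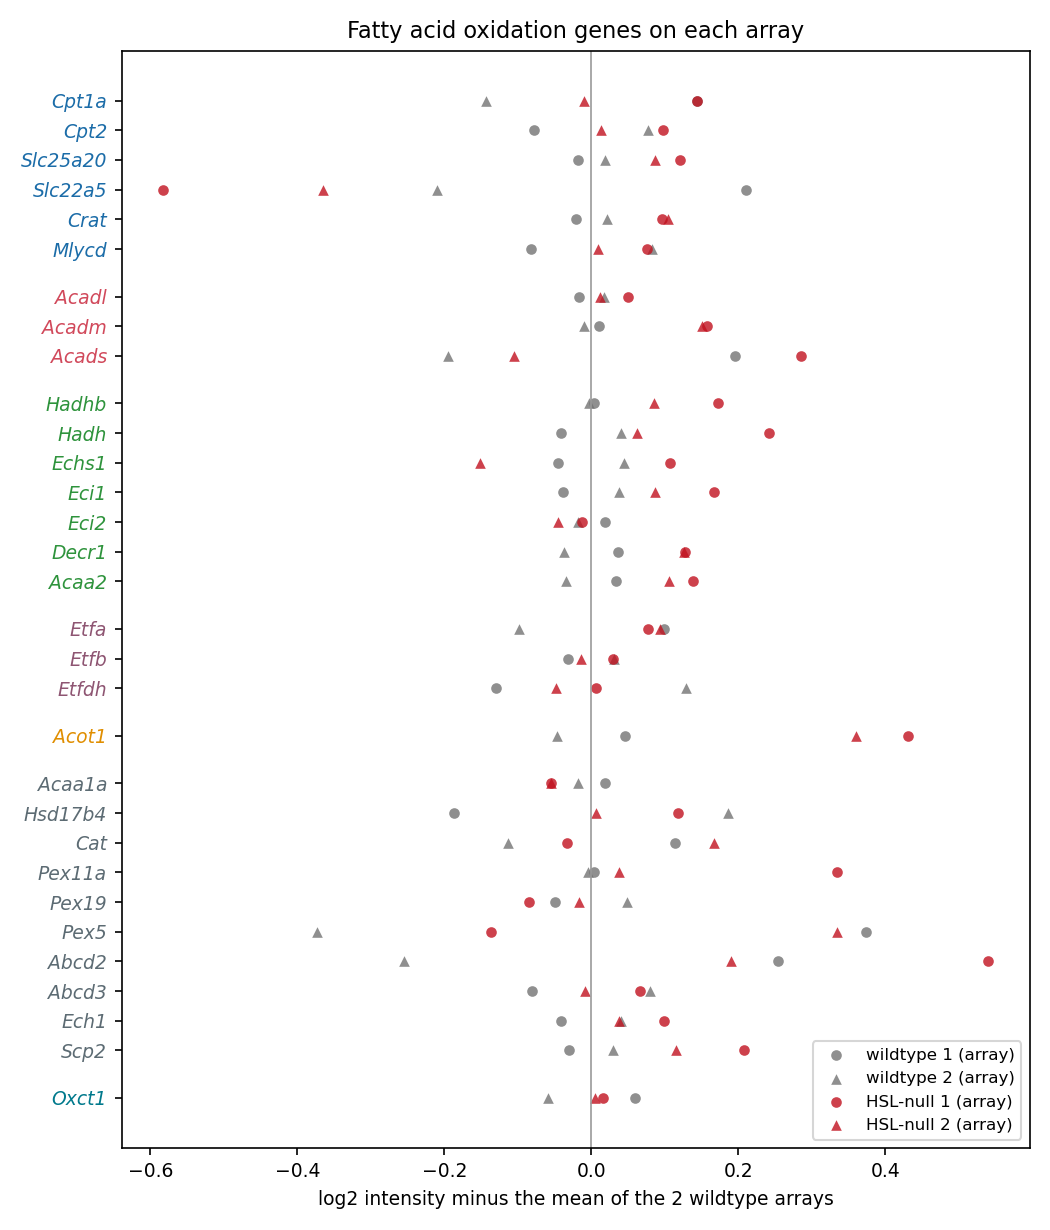
Log2 intensity of each of the 31 oxidation genes above the filter on each of the 4 arrays, minus the mean of the wildtype arrays (x axis); genes are grouped and coloured by step. For Acadm, Hadhb and Acot1 both HSL-null arrays (red) lie right of both wildtype arrays (grey), for Slc22a5 and Acaa1a left of them, and for 18 genes the colours overlap.

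The median difference of the 31 members was 0.068 (SD of this median over the 4 array pairs 0.037), and 25 members lay above 0. Over all 4851 named genes the median was -0.0041, and 48.8% lay above 0. The median of the members fell to 0.038 without HSL-null array 1 and reached 0.11 without wildtype array 2, and it was 0.035 with median centring. With median centring 21 members lay above 0, and with 1 array left out in turn 20 to 25 did. Bright genes as a whole also sat above 0. Among the 278 named genes with a mean intensity of at least 1000, a limit set once the values were known, the differences had a median of 0.036. In that range 69.8% lay above 0, and 30.2% were higher and 14.4% lower on all pairs. The 9 members in that range all lay above 0 and had a median of 0.12, with 6 higher on all pairs and 0 lower. On the side where the members were higher, HSL-null, the beta-actin ratio was larger (0.819, wildtype 0.697) while that of Gapdh was smaller. The part of RNA quality in the differences was not tested.

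**Figure D2:**
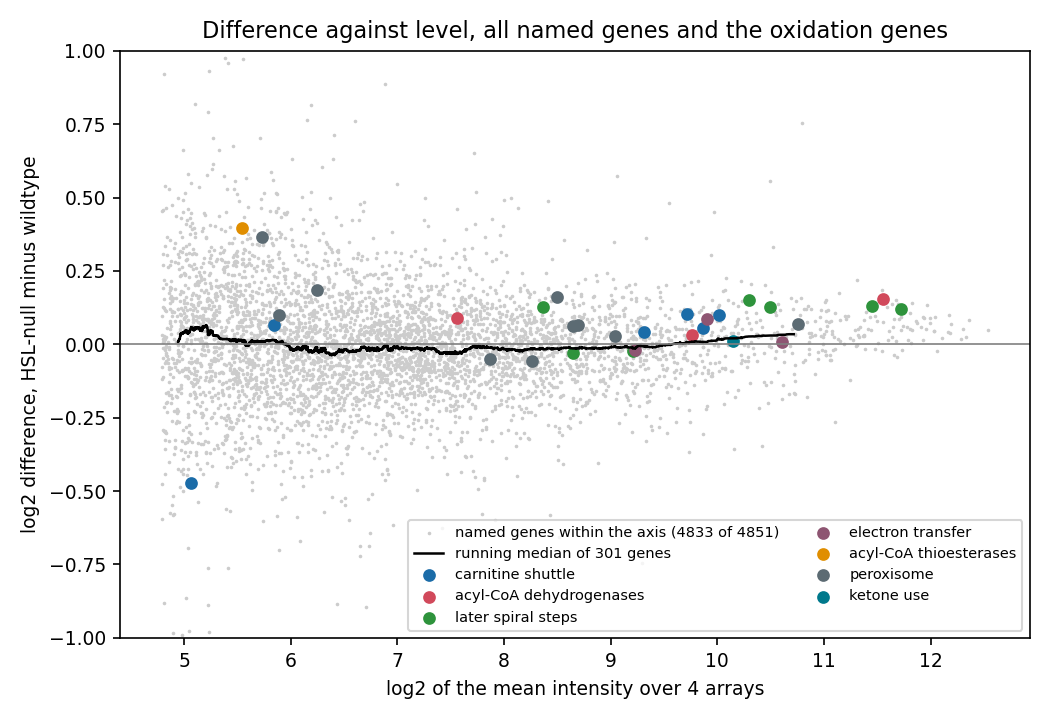
Log2 difference between HSL-null and wildtype (y axis) against log2 mean intensity over 4 arrays (x axis) for named genes within the axis (grey), with their running median (black) and the 31 oxidation genes coloured by step. The running median lies near 0 and ends slightly above 0 at the bright end, where the members above an intensity of 1000 have a median of 0.12 against 0.036 for all genes there.

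The start-site sequences of Acadm and Hadhb, among the members higher on all 4 pairs under every scaling, are shown from RefSeq (build GRCm38.p6), from 250 bases before to 50 after the start of each gene, 5′ to 3′ on the gene's strand. The Acadm window lies at chr3:153944594-153944893 on the minus strand, and its capitals mark TGACCT, the reverse complement of the nuclear receptor half-site AGGTCA. The Hadhb window lies at chr5:30155003-30155302 on the plus strand. Hadhb and Hadha, which encode the partner subunits of the trifunctional protein, start head to head, and the capitals mark the 228 bases that the Hadhb window shares with that of Hadha (chr5:30154931-30155230, minus strand). Hadha itself had no probe set here.
Acadm: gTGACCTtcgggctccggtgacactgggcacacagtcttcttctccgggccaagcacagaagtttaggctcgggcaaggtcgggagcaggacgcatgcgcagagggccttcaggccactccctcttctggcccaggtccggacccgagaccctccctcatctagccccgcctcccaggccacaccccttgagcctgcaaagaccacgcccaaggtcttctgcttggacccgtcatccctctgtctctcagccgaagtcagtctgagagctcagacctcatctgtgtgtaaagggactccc
Hadhb: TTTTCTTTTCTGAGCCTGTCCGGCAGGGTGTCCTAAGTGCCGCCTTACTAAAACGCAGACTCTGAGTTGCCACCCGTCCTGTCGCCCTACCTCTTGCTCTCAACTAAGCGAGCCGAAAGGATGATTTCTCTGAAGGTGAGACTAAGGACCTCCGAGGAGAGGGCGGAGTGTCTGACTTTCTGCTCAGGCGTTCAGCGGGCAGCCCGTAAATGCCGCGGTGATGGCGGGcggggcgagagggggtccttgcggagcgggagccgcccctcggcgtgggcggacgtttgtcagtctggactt

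Start-site windows were found by symbol for 30 of the 38 genes, in 34 windows. AGGTCA, searched on both strands, occurred in 6 of these windows (Acadm, Scp2, Cpt1a, Echs1, Cat and Acadvl), against 16.3% of all 32851 windows in the RefSeq table. Of the 8 members higher on all pairs that had a window, 2 held it, Acadm and Scp2. AGGTCANAGGTCA, the direct repeat to which PPAR and RXR receptors bind as a pair, occurred in 0 of the 34 member windows and in 0.0396% of all windows. TCAAGGTCA, the extended half-site of the estrogen-related receptors, likewise occurred in 0 of the 34 and in 0.423% of all. The 6-base motif is contained in both longer ones, and a motif absent from this window may lie elsewhere.

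The carnitine shuttle had 6 genes above the filter, of which 2 were higher on all pairs (19.7% of all named genes), 1 was lower (21.5% of all) and 3 overlapped, with a median of 0.061. Slc25a20, the translocase that carries acylcarnitine across the inner membrane, read 800 and 821 in wildtype against 881 and 861 in HSL-null. The lower HSL-null array thus lay above the higher wildtype array, and the difference was 0.10 ± 0.025 (SE). Crat, which exchanges short acyl groups between CoA and carnitine, read 987 and 1016 in wildtype against 1070 and 1076 in HSL-null. That difference was 0.10 ± 0.021, and the second Crat probe set gave 0.11 with overlapping arrays. Slc25a20 overlapped between genotypes with median centring, Crat did not.

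Slc22a5, the plasma membrane transporter that brings carnitine into the fibre, was the single shuttle gene lower on all pairs. Wildtype arrays read 44.7 and 33.4, HSL-null arrays 25.8 and 30. The difference was -0.47 ± 0.24, with the duplicates of wildtype far apart. It stayed lower on all pairs under the 4 other scalings and ranged from -0.68 to -0.26 over 13 alternatives. Its level lies close to the filter (27.7).

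For the 3 remaining shuttle genes the arrays of both genotypes overlapped. Cpt1a, the liver-type outer-membrane transferase, gave 61.6 and 50.5 in wildtype and 61.6 and 55.4 in HSL-null (0.067 ± 0.16). Cpt2, which returns the acyl group to CoA inside the mitochondrion, gave 867 and 965 against 978 and 922 (0.055 ± 0.088). Mlycd, which removes malonyl-CoA, the inhibitor of the outer transferase, gave 591 and 663 against 659 and 630 (0.042 ± 0.089). These errors allow differences of either sign. The muscle-type transferase gene Cpt1b was not analysed here, so the entry step of muscle was read from partner genes only.

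Among the acyl-CoA dehydrogenases, which differ in the chain length they accept, Acadm was the one gene with non-overlapping arrays. Over all named genes 19.7% were higher and 21.5% lower on all pairs. Acadm, the medium-chain enzyme, read 2863 and 2822 in wildtype and 3169 and 3156 in HSL-null. Its level was 2842 ± 28.9 (SD, n = 2 arrays) and 3163 ± 9.48, 11.3% higher in HSL-null, with a log2 difference of 0.15 ± 0.011 (SE), the smallest error of all 31 members. It ranged from 0.088 under quantile normalization to 0.16 without wildtype array 1. Acadl, the long-chain enzyme, read 850 and 870 against 890 and 866, a difference of 0.031 ± 0.026 with overlap. Acads, the short-chain enzyme, read 207 and 158 against 220 and 168, and its duplicates differed more than the genotypes (0.090 ± 0.28).

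Acadvl, the very-long-chain enzyme, was not measured in a usable way. Both of its probe sets read at most 2.4 on every array, below the floor of 5.7 under which values were not told apart, so no difference is given. The median of the 3 dehydrogenases above the filter was 0.090. It fell to 0.011 without HSL-null array 1 and rose to 0.16 without wildtype array 1, so that single arrays set its size.

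The later steps of the spiral held the most non-overlapping genes. Of 7 above the filter, 5 were higher on all pairs (19.7% of all named genes), 0 were lower (21.5% of all) and 2 overlapped, and their median was 0.13. With median centring 3 were higher and 1 lower, where all named genes gave 13.7% and 27.7%, and with quantile normalization 5 were higher and 0 lower at a median of 0.070. Hadhb, Hadh, Eci1 and Acaa2, all higher as deposited, had mean intensities above 1000. In that range 30.2% of named genes were higher and 14.4% lower on all pairs.

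Hadhb, the thiolase subunit of the trifunctional protein, read 2682 and 2669 in wildtype and 3015 and 2839 in HSL-null (0.13 ± 0.044). Hadh, the short-chain 3-hydroxyacyl-CoA dehydrogenase, read 1156 and 1223 against 1406 and 1241 (0.15 ± 0.099). HSL-null array 2 and wildtype array 2 of Hadh were almost level, and the genotypes overlapped with median centring. Acaa2, the mitochondrial 3-ketoacyl-CoA thiolase, read 3323 and 3172 against 3572 and 3494 (0.12 ± 0.037). The thiolase genes Hadhb and Acaa2 were thus higher in HSL-null by similar amounts, 9.33% and 8.81%. With quantile normalization both stayed higher on all pairs, but the log2 differences were smaller, at 0.055 for Hadhb and 0.070 for Acaa2.

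Eci1 and Decr1 belong to the auxiliary enzymes that let double bonds pass through the spiral. Eci1, an enoyl-CoA isomerase, read 1346 and 1419 in wildtype and 1551 and 1467 in HSL-null (0.13 ± 0.055). Decr1, the 2,4-dienoyl-CoA reductase, read 324 and 308 against 345 and 345 (0.13 ± 0.037). Both were higher on every pair, by 9.14% and 9.20%, but Eci1 overlapped with median centring.

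Echs1 and Eci2 did not share this pattern. Echs1, the short-chain enoyl-CoA hydratase, read 579 and 616 in wildtype and 643 and 538 in HSL-null, so that the HSL-null arrays spanned the wildtype ones (-0.022 ± 0.14). Eci2, a second enoyl-CoA isomerase, read 409 and 399 against 400 and 391 (-0.029 ± 0.025). Whether these genes differ from Hadhb or Acaa2 in their response was not tested.

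**Figure D3:**
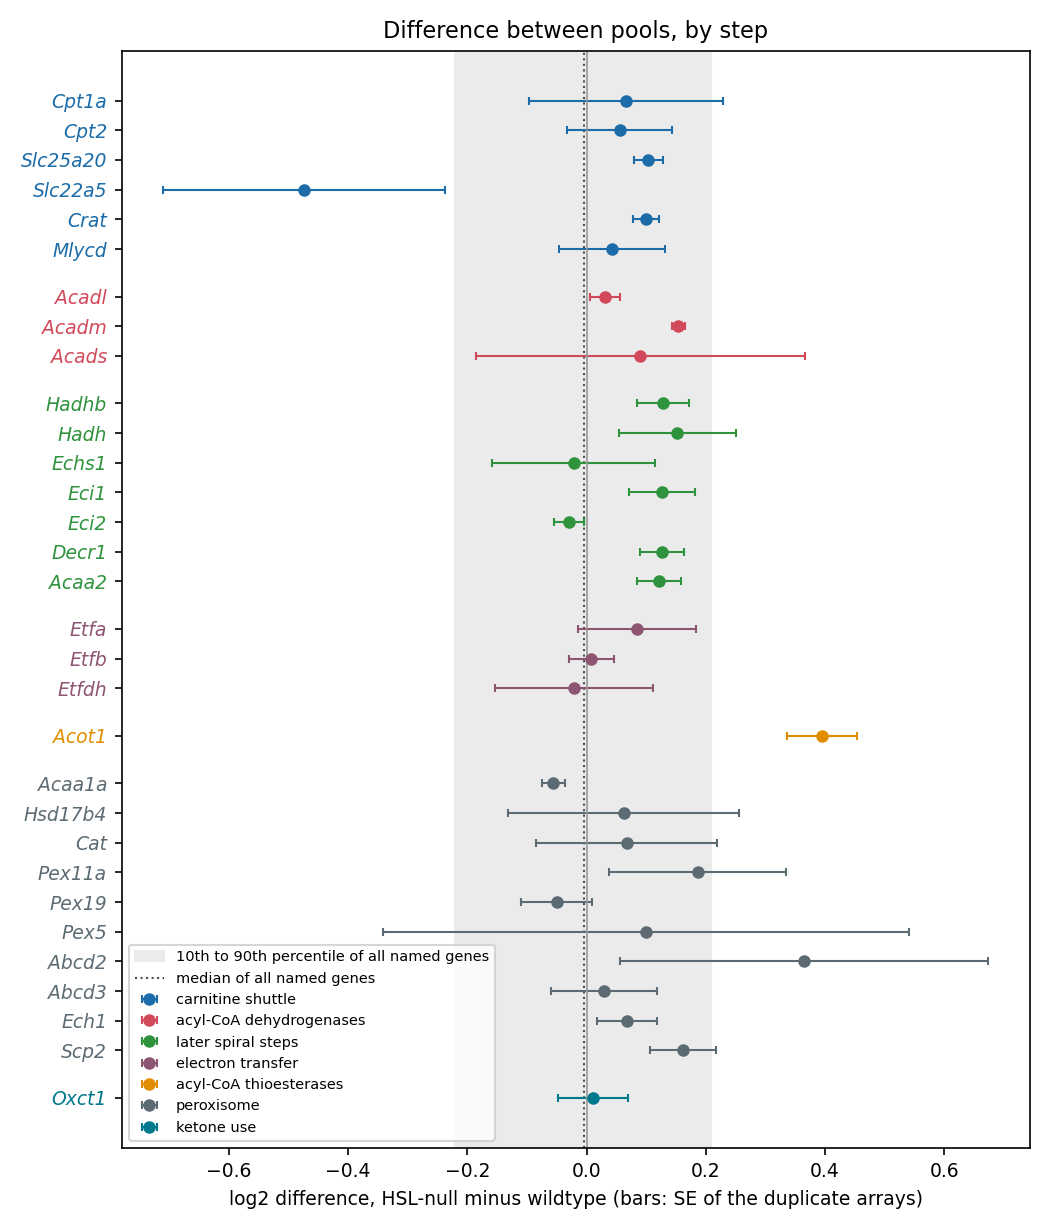
Log2 difference, HSL-null minus wildtype (x axis), of the 31 oxidation genes, grouped by step; points are means over 4 array pairs and bars the SE of the duplicates. The grey band is the range from the 10th to the 90th percentile of all named genes (-0.22 to 0.21), and only Acot1, Abcd2 and Slc22a5 have their point outside it.

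Electron transfer genes showed overlap throughout, with 0 of 3 non-overlapping and a median of 0.0079. Over all named genes 19.7% were higher and 21.5% lower on all pairs. Etfa, the alpha subunit of the electron transfer flavoprotein, read 996 and 869 in wildtype and 982 and 992 in HSL-null (0.085 ± 0.099). Etfb, its partner subunit, read 1523 and 1590 against 1588 and 1542 (0.0079 ± 0.038), and a dimmer second probe set gave -0.11. Etfdh, which hands the electrons to ubiquinone, read 550 and 658 against 605 and 582 (-0.021 ± 0.13). The median of the step was -0.026 with median centring and -0.0054 with cyclic loess, so no direction can be given.

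Acot1, a cytosolic thioesterase that splits acyl-CoA back into fatty acid and CoA, had the largest difference among the 11 higher genes. It read 41.6 and 39.0 in wildtype and 54.3 and 51.7 in HSL-null. The difference was 0.40 ± 0.058, or 1.32-fold, and the closest pair differed by 1.24-fold, short of the 1.5-fold asked for separation. It lay between 0.35 and 0.44 over 13 alternatives. Acot1 and the mitochondrial Acot2 are close paralogs, and as Acot2 had no probe set of its own, signal from Acot2 in this probe set cannot be told apart.

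Peroxisomal genes were more mixed. Of 10 above the filter, 2 were higher on all pairs, 1 was lower and 7 overlapped, at a median of 0.068. Over all named genes 19.7% were higher and 21.5% lower. With median centring 1 peroxisomal gene was higher and 2 were lower (13.7% and 27.7% of all named genes), at a median of 0.034. Of the enzymes, Scp2, which carries the thiolase for branched chains and a sterol carrier protein, read 333 and 347 in wildtype and 393 and 369 in HSL-null (0.16 ± 0.055). Its second probe set gave 0.070 with overlap. Acaa1a, the peroxisomal straight-chain thiolase, was lower on all pairs, at 317 and 309 against 300.7 on both HSL-null arrays, with a difference of -3.77% (log2 -0.055 ± 0.018). The near-identical Acaa1b may share its probes. It had its own probe sets, the brighter at 0.11 ± 0.10.

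Other peroxisomal enzymes overlapped. Hsd17b4, the bifunctional enzyme for the middle steps, read 343 and 445 against 424 and 393 (0.062 ± 0.19). Ech1, a dienoyl-CoA isomerase, read 1647 and 1743 against 1814 and 1739 (0.068 ± 0.051), with 3 of 4 pairs higher. Ehhadh, the other bifunctional enzyme, lay below the filter at 9.0 to 12.3 on all arrays. Catalase gave opposite signs on its probe sets. The brighter Cat probe set read 437 and 373 in wildtype and 395 and 454 in HSL-null (0.067 ± 0.15). The second read 129 and 137 against 113 and 119, lower on all pairs (-0.20), so the direction for Cat depends on the probe set.

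Transporters and assembly factors of peroxisomes also varied between duplicates. Pex11a, a membrane protein that promotes peroxisome division, read 71.1 and 70.7 in wildtype and 89.4 and 72.8 in HSL-null. Its difference of 0.19 ± 0.15 came mostly from HSL-null array 1, and without that array it was 0.038. Abcd2, an importer of very-long-chain acyl-CoA, read 54.8 and 38.5 against 66.8 and 52.4 (0.37 ± 0.31), and the related importer Abcd3 read 493 and 551 against 545 and 518 (0.029 ± 0.089). Both overlapped. Pex5, the import receptor for matrix enzymes, had the largest error of all members (0.099 ± 0.44), and Pex19, a chaperone for membrane proteins, gave -0.050 ± 0.060.

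Ketone use was represented by Oxct1 alone, the enzyme that commits ketone bodies to oxidation outside the liver. It read 1176 and 1083 in wildtype and 1141 and 1133 in HSL-null, with both HSL-null arrays between the wildtype ones (0.011 ± 0.059). Its sign turned under median centring (-0.023) and quantile normalization (-0.022).

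**Figure D4:**
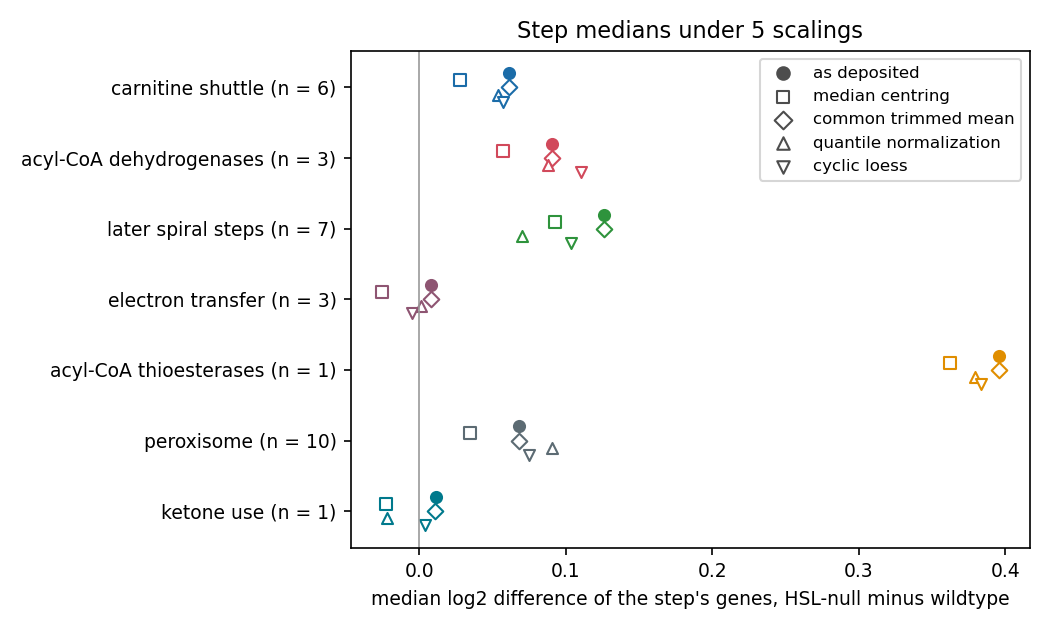
Median log2 difference, HSL-null minus wildtype (x axis), of the genes above the filter in each step, for the values as deposited (filled) and 4 other scalings (open symbols); n is the number of genes. Later spiral steps stay between 0.070 and 0.13, whereas electron transfer and ketone use cross 0.

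Several members were read by more than 1 probe set, which bears on how firmly single values can be taken. This held for 8 genes, and for 5 of them a second probe set lay above the filter. Signs differed for 2 of the 5, Etfb and Cat. They were the same for Crat, Scp2 and Acads, whose second probe set gave 0.056. With the mean over all probe sets of a gene, 11 members were again higher on all pairs and 3 lower. Over all named genes that setting gave 20.2% higher and 20.2% lower.

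Other genes around the pathway were taken from lists that do not overlap with the members except for Mlycd. The 10 regulators above the filter had a median of 0.14, although their medians on single array pairs ran only from 0.034 to 0.10. On all pairs 4 were higher and 1 lower, and with median centring 2 were higher and 1 lower. Over all named genes these shares were 19.7% and 21.5%, and 13.7% and 27.7% with median centring. Med1, which links nuclear receptors to the Mediator complex, was the separated one, at 1.28 ± 0.15. Its wildtype arrays, at 21.9 and 26.2, lay below the filter, which it passed through the HSL-null arrays alone (60.8 and 55.3). Of 12 genes of fatty acid uptake and activation, 5 were higher and 3 lower (3 and 3 with median centring), at a median of 0.066, with Fabp3, the muscle fatty acid binding protein, at 0.059 ± 0.053 and Lpl, lipoprotein lipase, at 0.097 ± 0.089. The 3 lower uptake and activation genes were Cd36 (-0.055), Fabp4 (-0.18) and Got2 (-0.077). Pdk4, the kinase that restrains glucose oxidation when fat is burned, is named after its values were seen. It read 2198 and 2031 in wildtype against 2383 and 2393 in HSL-null (0.18 ± 0.057).

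Further acyl-CoA oxidation genes gave 3 higher and 2 lower of 15, at a median of 0.040. With median centring 2 were higher and 4 lower (13.7% and 27.7% of all named genes), at a median of 0.0064. With quantile normalization 5 were higher and 1 lower (20.3% and 21.0% of all named genes). Phyh, which starts the breakdown of branched phytanic acid, was at 0.15 ± 0.078, and Gcdh, glutaryl-CoA dehydrogenase, at -0.090 ± 0.098. Other peroxisome genes gave 2 higher and 3 lower of 10, at a median of -0.028, with the membrane protein gene Pxmp2 at 0.027 ± 0.12. As deposited, the shares of higher genes in both lists are close to the background of 19.7%, and 21.5% of all named genes were lower.

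Markers that could move with these values were read beside them. General mitochondrial genes gave 5 higher of 21 (23.8%, near the 19.7% of all named genes) and 0 lower (21.5% of all). Their median was 0.045 (-0.0016 with quantile normalization). Of the 21, 16 lay above 0 (11 with median centring), against 48.8% of all named genes as deposited. Their summed intensities ran from 27021 to 28457 in wildtype and from 28665 to 29140 in HSL-null. Slc25a4, the ADP/ATP carrier, was at 0.092 ± 0.086 and Atp5a1, an ATP synthase subunit, at 0.050 ± 0.062. The oxidation genes with a probe set summed to 25384 and 25614 in wildtype and 27572 and 26592 in HSL-null. Slow fibre markers gave 3 higher (33.3%) and 0 lower of 9, at a median of 0.044, with Tnnt1 at 0.048 and Myh7 at 0.024. Of the 9, 8 lay above 0 (5 with median centring). All but Casq2 had mean intensities above 1000, where 30.2% of named genes were higher and 14.4% lower. With median centring 0 were higher and 0 lower (13.7% and 27.7% of all named genes). With quantile normalization 0 were higher and 1 lower (20.3% and 21.0% of all named genes).

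Fast fibre markers gave 5 higher and 0 lower of 11 (19.7% and 21.5% of all named genes), and 10 lay above 0. Their median was 0.083, with summed intensities of 22962 to 24814 in wildtype and 27940 to 28454 in HSL-null. The 3 separated ones, against 0.454% of all named genes, carried most of the higher sums. Mean intensities went from 278 to 1839 for Myh4, from 361 to 1097 for Actn3 and from 1320 to 2227 for Pvalb. White adipocyte markers were read without Lipe, the gene removed in HSL-null. Of the 7 others above the filter 5 were lower on all pairs, against 21.5% of all named genes, and 1, Agt, was higher (25.3 and 30.4 against 66.6 and 44.7), at a median of -0.25. Adipoq was separated (150.2 and 157 against 73.5 and 74.1). The sums were 1361 to 1463 against 914 to 1035, and most of that fall came from Scd1 (mean 786 against 471). Of 3 brown adipocyte markers above the filter, 0 were non-overlapping, and the defining marker Ucp1 read at most 10 on any array. The 2 brightest, Cox7a1 and Cidea, were at 0.034 ± 0.047 and -0.061 ± 0.24. The part of fibre type and of adipocytes in the differences of oxidation genes was not tested.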

How the data were processed

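RNA of soleus muscle was measured on 4 arrays. The authors deposited 1 linear intensity for each of 12488 probe sets per array. These intensities were already scaled when deposited (equal means on the 4 arrays after trimming 2% at each end). The sources used here do not give the software, the background correction or the scaling step.

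Values below the 25th percentile of the table (5.7) were set to it, and log2 was taken. The 66 control probe sets were left out, and probe sets were kept from the median mean intensity (27.7) upwards. Names came from the platform annotation (10855 probe sets with 1 symbol, 396 with several, 1237 unlisted). For 10839 of the 10855 the gene ID was found in RefSeq, and the RefSeq symbol was used. The brightest probe set stood for a gene.

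All 4 array pairs were compared, with no test, since each genotype is 1 pool. A simulation checked only the 1.5-fold call of separated genes, and its outcome is not given here. The call of non-overlapping genes was not scored in it. The members, lists and rules were chosen with earlier results of these data known. Values on each array were given for non-overlapping members, for a fixed set of key enzymes, and where probe sets differed in sign; the other members were added for completeness. In the other lists, separated genes or the 2 brightest were named. Pdk4, Cd36, Fabp4, Got2, Agt, Scd1 and Ucp1 were named outside this rule. Alternatives covered the scaling, floor, filter, fold, probe set, replicate number and each array left out. Python 3.11.15, numpy 2.4.6, pandas 2.3.3, and limma 3.58.1 in R 4.3.3 were used. Values of 0 became 0.1 before quantile normalization and cyclic loess.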

Additional observations from a re-analysis of the deposited data

How the results depend on the processing

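The count of separated members was 0 under all 16 alternatives. Median centring gave 7 members higher and 4 lower on all array pairs in place of 11 and 2. All named genes moved to 13.7% and 27.7% from 19.7% and 21.5%. Quantile normalization gave a median of 0.070 for the later spiral steps in place of 0.13. With the filter at the 75th percentile 1 member was lower on all pairs, since fewer genes were compared, and Acot1 fell below the filter. Taking the replicate number as a block, which leaves 2 of the 4 pairs, gave 13 higher and 4 lower, while all named genes rose to 25.4% and 27.5% from 19.7% and 21.5%, and the medians are the same by construction. The numbers are only names here: over 4851 genes the deviations of same-numbered arrays correlated at -0.067. Leaving out 1 array in turn, which also leaves 2 pairs, gave 12 to 19 members higher and 3 to 8 lower, and 33.4% to 35.1% and 35.8% to 36.9% of all named genes, so the background rose as well. The median then ranged from 0.038 to 0.11 for all members, from 0.011 to 0.12 for the carnitine shuttle and from 0.011 to 0.16 for the dehydrogenases. The cause of these shifts was not tested. No non-overlapping member changed sign under any alternative run for it. Duplicate arrays limit precision to a median SE of 0.060 per member, so that differences near 0.1 are at the edge of what these arrays show.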
